A study of Cyanidioschyzon merolae with 75 samples.

Results

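Alpha-tubulin and beta-tubulin of Cyanidioschyzon merolae, a unicellular red alga studied here as strain 10D, are described over 25 sampling times. They are 2 of the 4576 genes on the array, with the locus tags CMT504C for alpha-tubulin and CMN263C for beta-tubulin, and each had 1 probe. The pair was chosen by tag, after its course in these data had been seen, so its values are given as a description and carry no test. The files and the reference gene table hold locus tags only. The names alpha-tubulin and beta-tubulin come from the rule that selected the pair and were not checked against a sequence.

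The study followed a culture of strain 10D, set in step by light and dark cycles, at every 2 h from 2 to 50 h. This span was designed to cover a pair of successive cell cycles. All times share the strain, the labels name no mutant or drug, and no source used here gives the clock hours of light and dark. Each of the 75 arrays has Cy3 for the RNA of 1 time and Cy5 for a pool mixed from the samples. The labels describe this pool alike for all arrays, but no source used here says that 1 batch of it served them all, so a ratio to the pool at 1 time may have another base than at the next. Each time appears in 3 series, but at 24 of the 24 times with intensities in all series the series 3 intensities were the mean of series 1 and 2 within 0.01%. For this reason series 3 alone gives the value of each time, and no value below has a replicate culture behind it.

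Alpha-tubulin and beta-tubulin are the subunits of the heterodimer from which microtubules are built. Microtubules form the mitotic spindle, and eukaryotic cells add and remove dimers at their ends as the spindle grows and comes apart. C. merolae has a single nucleus, mitochondrion and plastid, and light and dark cycles bring its divisions into step, which is why it is used to study the division of organelles. RNA here was taken from whole cultures, so a larger share of cells in 1 phase and more tubulin RNA per cell cannot be told apart.

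Both genes rose and fell in a pair of waves. Values are log2 of raw Cy3 over raw Cy5 minus the array's median, so 0 is the ratio of the median probe on that array. Alpha-tubulin ran from -2.89 at 46 h to 1.56 at 38 h, a span of 4.45, or 21.8-fold. Beta-tubulin ran from -2.86 at 6 h to 1.23 at 36 h, a span of 4.09, or 17.0-fold. The medians over the 25 times were -1.44 and -1.33, so both genes spent most of the course low and were high for short stretches.

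In the first cycle alpha-tubulin was low at 2, 4 and 6 h, with -1.58, -1.51 and -1.70, and lowest at 8 h with -2.26. It was -1.92 at 10 h and -1.47 at 12 h. At 14 h it had risen to 0.39, and the next values were 1.46 and 0.69, at 16 and 18 h. The step of 1.86 from 12 to 14 h was its largest between neighbouring times. It declined to -0.24 at 20 h, -1.44 at 22 h and -0.92 at 24 h. Of these 12 values, those of 14, 16 and 18 h were above 0 and the other 9 below it.

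In the second cycle alpha-tubulin was low again at 26, 28 and 30 h, with -1.79, -1.79 and -2.50. It then went through -1.12 at 32 h and 0.56 at 34 h to 1.29 at 36 h and 1.56 at 38 h. The way down took it through 0.91 at 40 h, 0.10 at 42 h and -0.98 at 44 h to -2.89 at 46 h, with -2.84 at 48 h and -2.41 at 50 h. The second wave was above 0 at 34, 36, 38, 40 and 42 h, at 5 times against 3 in the first, and its last step from 44 to 46 h, of -1.91, was the largest fall.

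Beta-tubulin had the same outline. It was low at 2, 4, 6 and 8 h, with -2.42, -2.22, -2.86 and -2.37, and stood at -1.68 at 10 h and -1.76 at 12 h. A step of 2.11, its largest, led to 0.35 at 14 h, followed by 0.59 at 16 h and 0.35 at 18 h. The first wave of beta-tubulin was thus flatter than that of alpha-tubulin, with a highest value of 0.59 against 1.46. It then dropped to -0.73 at 20 h, -2.06 at 22 h and -1.86 at 24 h.

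From 26 h on, beta-tubulin stood at -2.53, with -1.33 at 28 h, -1.80 at 30 h and -1.15 at 32 h. The second wave began with 0.58 at 34 h, was highest with 1.23 at 36 h and went on with 1.00 and 0.35 at 38 and 40 h. This wave was higher than the first, and beta-tubulin was above 0 at 7 times in all against 8 for alpha-tubulin, the one more being 42 h. Its decline ran through -0.05 at 42 h, -0.29 at 44 h and -1.10 at 46 h to -2.54 at 48 h and -2.31 at 50 h.

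**Figure D1:**
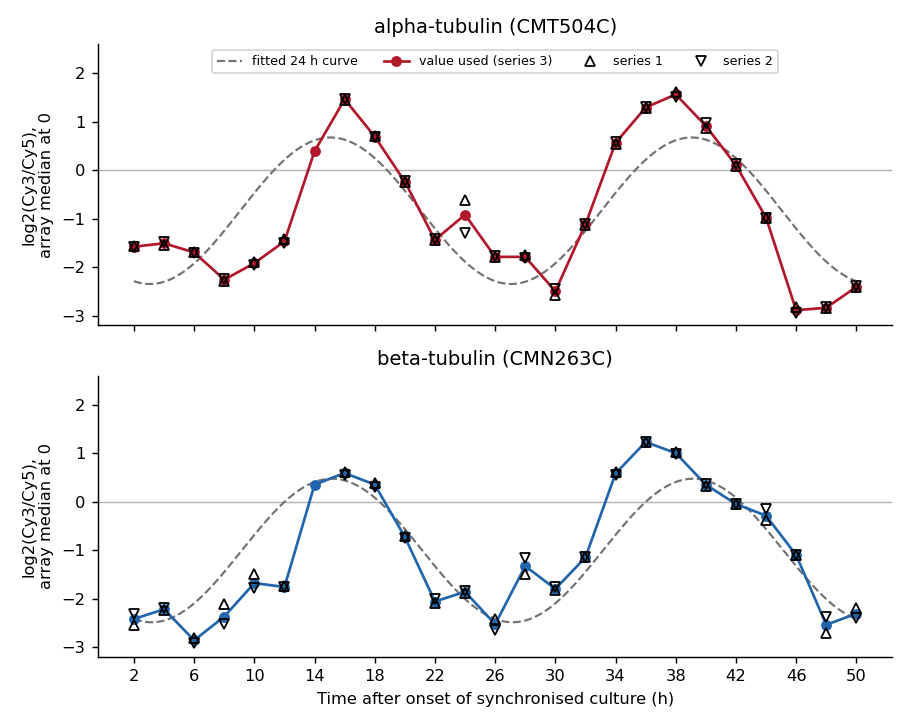
Log2 ratio of alpha-tubulin and beta-tubulin to the pool, minus the array median, against time in hours. Filled points are the values used, open triangles the readings of series 1 and 2 (none at 14 h), and the dashed line is the fitted 24 h curve. Alpha-tubulin reaches 1.46 at 16 h and 1.56 at 38 h, beta-tubulin 0.59 at 16 h and 1.23 at 36 h, and both genes lie below the curve at 12 h and above it at 34 and 36 h.

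The readings of series 1 and 2, taken here as readings of the same sample, give a lower limit of the error. They differed by a median of 0.036 for alpha-tubulin and 0.064 for beta-tubulin over 24 times. The largest difference was 0.69 for alpha-tubulin, at 24 h, and 0.41 for beta-tubulin, at 8 h. Both are small beside the spans, but the rise of alpha-tubulin from 22 to 24 h, by 0.52, is within that difference at 24 h.

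Such spans were wide for the array. A span of at least 4 was found in 18 of 4576 genes (0.393%), both tubulins among them, and the median span over all genes was 0.92. The limit of 4 was not a planned one and lies just under the span of beta-tubulin. That span was 3.765 without 6 h and 3.867 without 36 h, under the limit. By size of span alpha-tubulin stood at place 11 and beta-tubulin at place 15. Since the pair was chosen with its course known, these places describe it and support nothing.

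Both genes went up and down together for most of the course. Over the 25 times Pearson's r between them was 0.89 and Spearman's rho 0.79. Without 16 and 38 h, the times farthest from the median of alpha-tubulin, r was 0.86 and rho 0.74. Within 2 to 24 h r was 0.94 over 12 times, and within 26 to 50 h it was 0.92 over 13 times. The times are successive samples of synchronised cells, and both genes are read on the same arrays, so these correlations carry no p.

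No delay of 1 gene against the other was seen at the 2 h spacing. With beta-tubulin taken 2 h before or 2 h after alpha-tubulin, r was 0.70 and 0.72 over 24 pairs, and 4 h before or after it was 0.36 and 0.32 over 23 pairs, all lower than 0.89 at equal times. From each time to the next, both genes moved in the same direction in 20 of 24 steps. The steps that went opposite ways ended at 8, 12, 38 and 48 h.

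The distance between the genes changed over the course. Alpha-tubulin minus beta-tubulin had a mean of 0.17 and an SD of 0.65 over the 25 times, and the genes lay within 0.5 of each other at 13 of them. Alpha-tubulin was the higher at 17 times. From 2 to 6 h it was higher by 0.84, 0.71 and 1.16, at 16 h by 0.87 and at 24 h by 0.93. At 28 and 30 h it was the lower, by -0.45 and -0.71, and at 44 and 46 h by -0.69 and -1.79.

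With values centred on the array median, the widest gap, at 46 h, fell on the way down from the second wave. There the ratio of alpha-tubulin had dropped to -2.89 while that of beta-tubulin stood at -1.10, and both were below -2.5 at 48 h. The Cy3 readings alone stood in the opposite order, as given below. The gap at 46 h was -0.83 with loess, which fits the ratio to the intensity on each array, and -1.20 with normexp, a background correction. Without 44, 46 and 48 h, times chosen after their values were seen, r was 0.94 over 22 times. The gap at 2, 4, 6 and 26 h also changed with normexp and with loess. With normexp it was -0.10, -0.22, -0.01 and -0.25, in place of 0.84, 0.71, 1.16 and 0.74. With loess it was wider, 0.97, 1.00, 1.38 and 0.78, so under loess the gap at 6 h exceeded that at 46 h.

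**Figure D2:**
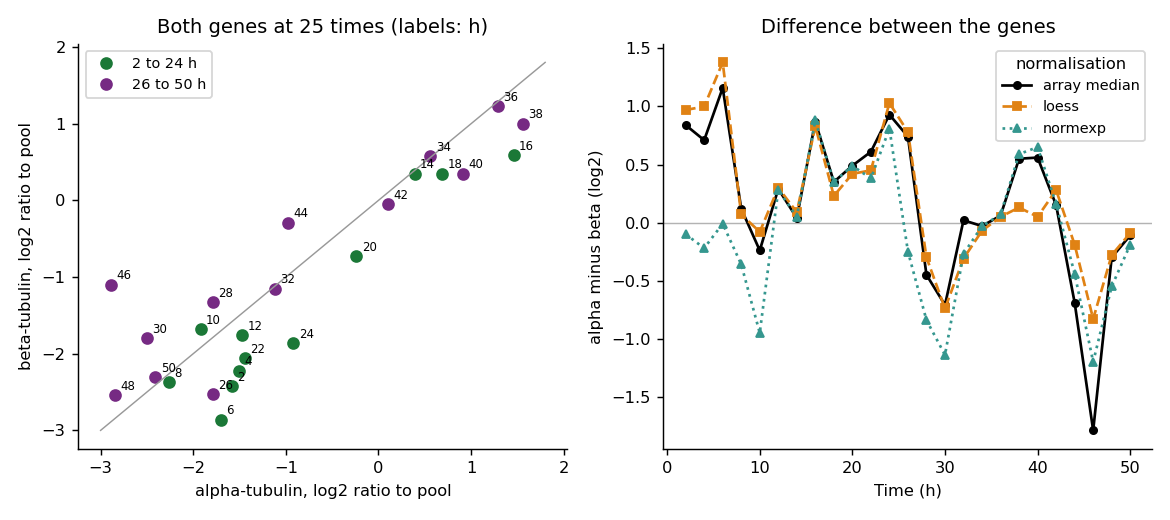
Left, beta-tubulin against alpha-tubulin, each as log2 ratio to the pool, at 25 times labelled in hours, with the line of equal values; right, alpha-tubulin minus beta-tubulin on the log2 scale against time under 3 normalisations. Most points lie near the line, and 46 h is farthest off it with -1.79. The early gap of 0.71 to 1.16 at 2 to 6 h is near 0 with normexp and 0.97 to 1.38 with loess.

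The rise and fall were timed in each cycle by the midpoint between the lowest and the highest value, with straight lines between neighbouring times. In the first cycle alpha-tubulin passed its midpoint upwards at 13.1 h and downwards at 20.3 h. Beta-tubulin did so at 12.6 and 20.6 h. In the second cycle the upward pass came at 32.5 h for alpha-tubulin and 32.6 h for beta-tubulin. Counted from 24 h these are 8.54 and 8.57 h, earlier in the cycle than in the first by 4.6 and 4.0 h.

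The second wave was also longer. Alpha-tubulin stayed above its midpoint for 7.12 h at first and for 10.9 h in the later cycle, and beta-tubulin for 8.02 and 12.3 h. The downward passes, at 43.4 h for alpha-tubulin and 44.9 h for beta-tubulin, came at 19.4 and 20.9 h within the second cycle. The fall thus kept its place in the cycle to within 1 sampling interval, while the rise came earlier. Highest values stood at 16 h in the first cycle for both genes, and at 38 h for alpha-tubulin and 36 h for beta-tubulin in the second, 22 and 20 h later.

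Each course was set against itself after a shift to see which distance laid the first wave over the second. For alpha-tubulin r was 0.88 at a shift of 20 h over 15 pairs, 0.79 at 22 h over 14 pairs and 0.51 at 24 h over 13 pairs. For beta-tubulin it was 0.78, 0.77 and 0.66. Of the shifts from 16 to 32 h, 20 h gave the highest r for both genes, although for beta-tubulin 20 and 22 h differed by 0.01, and in the authors' deposited table of log2 values its best shift was 22 h. Among the other 493 genes with a span of at least 2 (495 of 4576 genes, or 10.8%, both tubulins included), the best shift was 20 h in 23.1%, 22 h in 8.32% and 24 h in 27.4%. A best shift of 20 h was therefore shared by many genes of this array and is not particular to the tubulins.

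**Figure D3:**
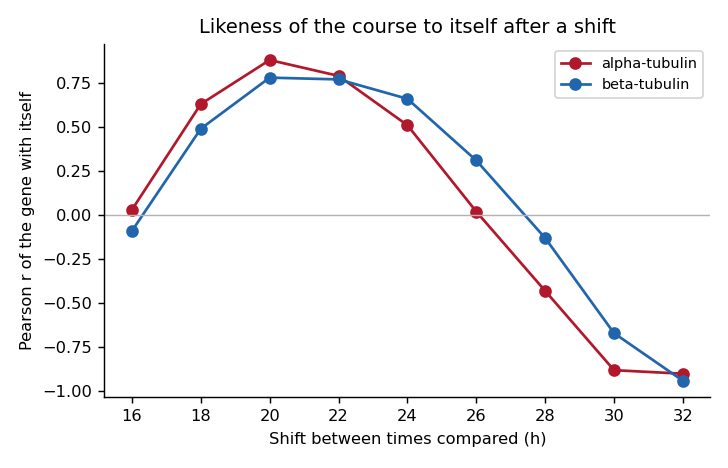
Pearson's r of each tubulin with its own course, against the shift in hours between the times compared. Alpha-tubulin reaches 0.88 and beta-tubulin 0.78 at 20 h, both fall through 24 h (0.51 and 0.66), and both are negative from 28 h on.

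Matched times 24 h apart show the same change hour by hour. At 12 and 36 h, alpha-tubulin was higher in the second cycle by 2.76 and beta-tubulin by 2.98, and at 10 and 34 h by 2.48 and 2.26. Alpha-tubulin at 24 and 48 h was lower in the second cycle, with a difference of -1.91. Over 12 matched times the second cycle minus the first was 0.08 ± 0.43 (standard error) for alpha-tubulin, with 4 of 12 higher. For beta-tubulin it was 0.75 ± 0.31, with 8 of 12 higher. These standard errors treat 12 serial times of 1 course as independent. They describe the spread over times and not the error of a difference between cycles. The mean of alpha-tubulin thus hides large differences of opposite sign. Its sign depends on single times, since it was -0.16 without 12 or 36 h and 0.27 without 24 h or 48 h.

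A cosine of 24 h was fitted to all genes with limma's lmFit to describe the timing. Its standard errors, here and for each cycle below, take the times as independent and the period as 24 h. The times are serial samples of 1 course, so these errors describe the fit and not the error of the timing. The fitted peak was at 15.1 ± 0.64 h (standard error of the fit, 25 times) for alpha-tubulin and at 15.2 ± 0.54 h for beta-tubulin. Each is an average over cycles whose own fitted peaks differed, as given below. The fitted peak-to-trough was 3.02 ± 0.49 and 2.96 ± 0.41 on the log2 scale. Fitted values of at least 2 were found in 46 of 4576 genes (1.01%), and the median of all genes was 0.24. The curve took up 63.1% of the variance of alpha-tubulin and 70.8% of that of beta-tubulin.

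Fitted to each cycle alone, the peak came earlier in the second. From 2 to 24 h it was at 17.4 ± 0.82 h for alpha-tubulin and 16.5 ± 0.59 h for beta-tubulin. From 26 to 48 h, counted from 24 h, it was at 13.6 ± 0.48 and 13.9 ± 0.45 h. The peak-to-trough was 2.68 ± 0.57 and 4.12 ± 0.52 in the successive cycles for alpha-tubulin, and 2.98 ± 0.46 and 3.33 ± 0.39 for beta-tubulin, each over 12 times. The cycle-wise curves took up 70.8 to 89.1% of the variance.

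The colours of the array were also read separately, as log2 intensity minus the median of that colour on the array. Cy3, the RNA of the sampling time, spanned 5.53 for alpha-tubulin and 6.21 for beta-tubulin. Cy5, whose mixture the labels describe alike for all arrays, spanned 3.55 for alpha-tubulin, from 1.17 at 4 h to 4.72 at 44 h. For beta-tubulin Cy5 spanned 4.75, from 0.41 at 44 h to 5.16 at 38 h. The SD over times of Cy5 was 1.06 and 1.14, against a median of 0.46 over all genes. A Cy5 SD at least as large was found in 1.09% of genes for alpha-tubulin and 0.262% for beta-tubulin.

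In both genes Cy5 moved with Cy3, with an r of 0.74 for alpha-tubulin and 0.72 for beta-tubulin over 25 times. For alpha-tubulin Cy5 went from 1.85 at 10 h to 3.68 at 14 h and was back at 2.30 by 22 h, so its pool channel was brighter during the first wave too. Cy3 of alpha-tubulin moved further in the same window, from -0.04 at 10 h to 4.93 at 16 h and 0.89 at 22 h. Cy5 of beta-tubulin did not trace the first wave in this way. It was 3.83 at 10 h, 3.06 at 14 h and 4.88 at 16 h, and still 4.79 at 22 h. The ratio had an r with Cy3 of 0.85 for alpha-tubulin and 0.79 for beta-tubulin, and with Cy5 of 0.28 and 0.14. Because the ratio is made from both colours, its r with each is partly built in. The colour with the larger spread is favoured, here Cy3 with an SD of 1.98 and 1.83. These r are therefore a description only. Between the genes, r was 0.72 for Cy3 and -0.31 for Cy5, and Spearman's rho was 0.69 and 0.03.

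The late gap between the genes fell on arrays where their Cy5 readings stood far apart. At 44 h Cy5 was 4.72 for alpha-tubulin and 0.41 for beta-tubulin, and at 46 h 4.15 and 0.99. Cy3 at 44 h was 3.77 for alpha-tubulin and 0.14 for beta-tubulin, and at 46 h 1.29 and -0.08. In Cy3 alpha-tubulin was thus the higher at both times, although it was the lower in the ratio. Cy5 readings far apart were not particular to these arrays, and also occurred where the gap was small. At 8 h Cy5 was 1.69 for alpha-tubulin and 3.94 for beta-tubulin, with a gap of 0.12. At 32 h it was 1.61 and 4.39, with a gap of 0.02. In Cy5 alpha-tubulin was the lower at 8 and 32 h and the higher at 44 and 46 h. In raw units the Cy5 reading of alpha-tubulin at 46 h was 82830, its highest of the course, and that of beta-tubulin at 44 h was 3455, its lowest. The Cy3 reading of beta-tubulin was lowest at 44 h as well, with 3612. No reading of either tubulin was under the tenth percentile of its array and colour. The part of these readings in the gap was not tested.

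**Figure D4:**
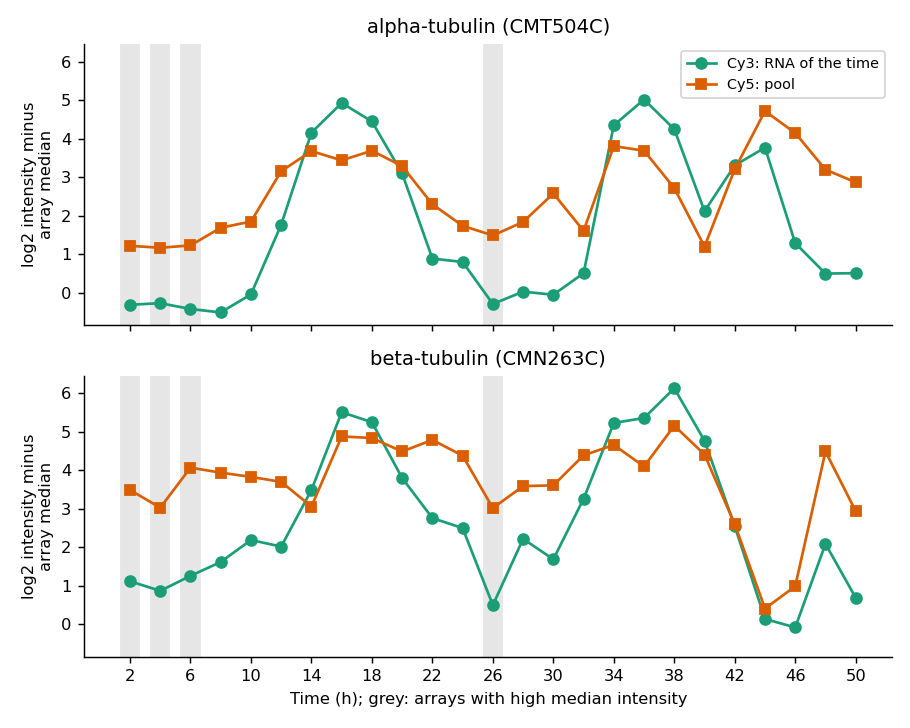
Log2 intensity minus the array median of the same colour, for Cy3 (RNA of the time) and Cy5 (pool), against time for each tubulin; grey bands mark the arrays of 2, 4, 6 and 26 h. Cy3 shows both waves, and Cy5 is not flat, with 1.17 to 4.72 in alpha-tubulin and a drop to 0.41 at 44 h in beta-tubulin.

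The arrays of 2, 4, 6 and 26 h stood apart by brightness, with a median Cy5 of 12093 to 14416 against 552 to 4668 on the other 21. All 4 fell in troughs of the tubulins. Alpha-tubulin lay between -1.79 and -1.51 there, above its lowest values on other arrays, and its Cy3 readings of 11446 to 13275 were near the tenth percentile of Cy3 on these arrays, 9473 to 11780. With normexp the same arrays gave -3.41 to -2.71. Beta-tubulin, with Cy3 readings of 22934 to 36794, lay between -2.86 and -2.22 and changed less, to -3.16 to -2.56. Trough depth of alpha-tubulin in the first hours therefore depends on the background correction. The waves do not lie on these arrays.

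In the authors' deposited table the log2 values of alpha-tubulin ran from -1.78 at 48 h to 2.55 at 38 h. Those of beta-tubulin ran from -1.97 at 6 h to 2.15 at 38 h in the authors' deposited table. These values are centred on each probe's mean over the times and so lie higher by construction than the ones above. Their r with them was 0.99 for both genes.

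Other genes were ranked by Pearson's r with the mean of both tubulins over the 25 times. Of the other 4574 genes 6 reached an r of 0.9 (0.131%) and 37 an r of 0.8 (0.809%). The median r was -0.03. Seen from alpha-tubulin, beta-tubulin was the gene with the 16th highest r of 4575. Seen from beta-tubulin, alpha-tubulin was the 4th. The nearest single genes were CMH128C for alpha-tubulin, at 0.93, and CMI242C for beta-tubulin, at 0.96, so neither tubulin had the other as its closest match.

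The 8 genes most like the pair, none of them named in the files or the reference table, were CMN330C, CMN166C, CMN169C, CMI242C, CMO005C, CMD161C, CMH122C and CMG078C. Their r ran from 0.93 for CMN330C and CMN166C to 0.90 for CMH122C and CMG078C. All 8 had their highest value of the first cycle at 14 to 18 h and of the second at 34 to 38 h. Their spans were narrower than those of the tubulins, from 2.40 to 3.76, and their fitted peaks lay between 13.5 and 15.7 h. The best shift of these 8 genes was 20 or 22 h, as for the tubulins. That follows in part from the ranking, which used the whole course.

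CMN166C and CMN169C, whose tags are close in number, had their highest values at 16 h, with 1.40 and 1.22. CMN166C reached 1.26 and CMN169C 1.11 at 36 h. In both genes the first wave was the slightly higher, whereas in beta-tubulin the second was, with 1.23 against 0.59. CMI242C followed beta-tubulin (r = 0.96) more closely than alpha-tubulin (r = 0.84), and it too had the higher second wave, with 0.82 at 36 h against 0.49 at 16 h. CMD161C went the other way, with an r of 0.92 with alpha-tubulin and 0.85 with beta-tubulin and 1.55 at 16 h against 1.21 at 38 h.

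The number of genes past 0.9 depends on single arrays, being 15 without 44 h, 11 without 6 h and 10 without 48 h in place of 6. Of the 3 genes with the lowest r, CMI196C (-0.86) stood at -1.67 at 38 h, its lowest, and at 0.96 at 50 h, its highest. CMP184C (-0.79) was also lowest at 38 h, with -2.64, and highest at 28 h, with 0.98. CME118C (-0.74) moved within a span of only 0.95. The fitted peaks of these genes, at 2.25, 3.48 and 1.22 h, lie in the trough of the tubulins.

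**Figure D5:**
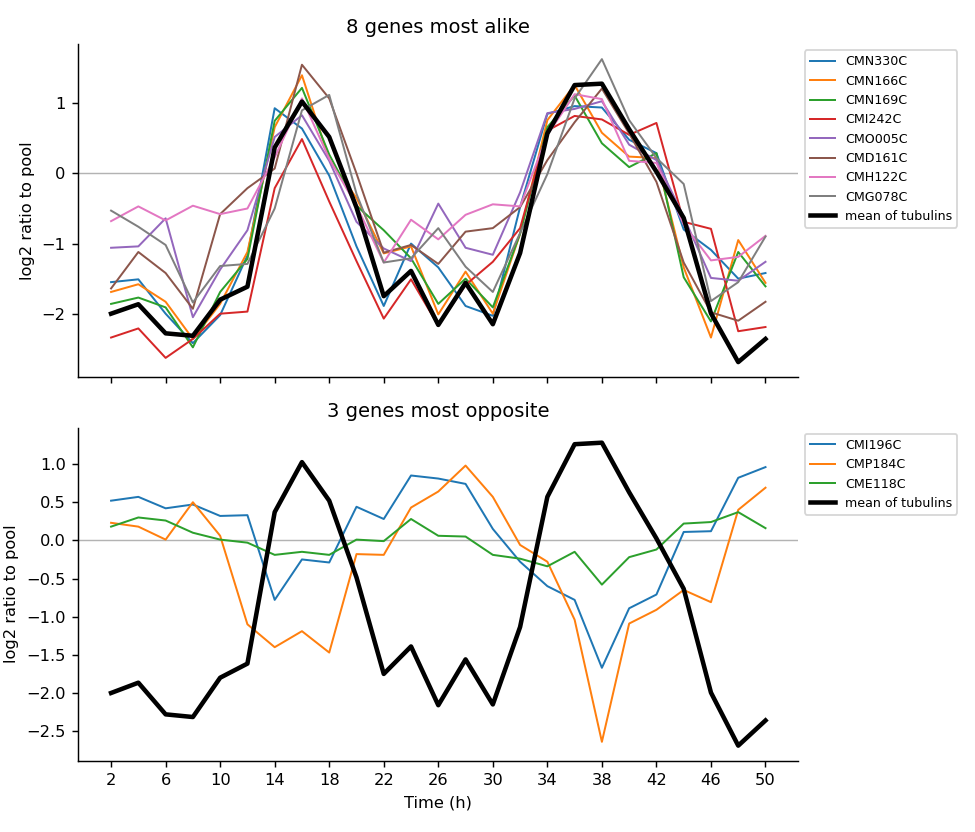
Log2 ratio to the pool against time for the 8 genes most like the mean of the tubulins (top) and the 3 most opposite (bottom), with the tubulin mean as the thick black line. The 8 genes rise at 14 to 18 h and 34 to 38 h with the tubulins, and CMI196C and CMP184C are lowest at 38 h.

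Neighbours on the chromosome were looked at because adjacent genes can share a course. The tubulins lie on different chromosomes in the reference table. CMN262C, next to beta-tubulin, had an r of 0.87 with the tubulin mean, 0.92 with alpha-tubulin and 0.78 with beta-tubulin itself. It spanned 3.42, with 1.17 at 16 h, 1.22 at 36 h and -2.20 at 46 h, and its fitted peak was at 13.7 ± 0.84 h. At 46 h it was thus low with alpha-tubulin and not with its neighbour. The next genes around beta-tubulin, CMN260C, CMN264C and CMN265C, had an r of 0.31, 0.30 and 0.06.

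Around alpha-tubulin no neighbour followed its course. CMT502C, CMT503C and CMT508C had an r of -0.24, 0.10 and 0.26 with the tubulin mean and spans of 0.34, 0.84 and 0.70. CMT506C, between alpha-tubulin and CMT508C, had no probe of that tag on the array. No source used here gives the layout of the spots, so array position and chromosome position of CMN262C and beta-tubulin cannot be told apart.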

How the data were processed

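The authors deposited raw Cy5 and Cy3 intensity values for 73 of 75 arrays, scaled Cy3, the ratio of scaled Cy3 to Cy5, and a log2 value, per the file headers. Per the labels' protocols, aRNA made from oligo(dT)-primed cDNA was coupled to dye. Scanner and background steps: not given in the sources used here. In 95.5 to 96.0% of values the deposited log2 value equalled log2 of the deposited ratio within 0.01. That comparison left aside 1 constant per probe and 1 per array, so it settles scale and direction but not centring. Medians of the deposited log2 value over genes ran from -0.30 at 28 h to 0.65 at 46 h in series 3. For 48 h of series 3 the log2 column of the sample file differed from the series table, which was used.

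Series 1 and 2 at 14 h held no intensities. Ratios of series 3 were centred on the array median, and the 10 genes with 2 probes were averaged. Fits used limma 3.58.1 in R 4.3.3, tested on simulated data. The number of arrays, 1 value per time, limits the precision.

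The members, lists and settings were chosen with earlier results of these data known. Genes named are the tubulins, the 8 most and 3 least alike by r, and 2 neighbours on each side in assembly ASM9120v1, to which 4565 of 4576 tags matched. That table holds no product, so 9 planned functional lists had 0 members. Alternatives were loess, normexp with an offset of 50, scaling between arrays, the deposited log2 values, and times or series left out. Planned searches of protein and promoter sequence were not run.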

Additional observations from a re-analysis of the deposited data

How the results depend on the processing

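No paired analysis was possible because the 3 series are readings of 1 sample and no result comes from a test. Series 1 alone, series 2 alone and the mean of their log2 ratios were each used in place of series 3, without 14 h. There r between the tubulins was 0.88. The fitted peaks were at 15.0 to 15.1 h for alpha-tubulin and 15.0 to 15.3 h for beta-tubulin. No time had a tubulin reading under the tenth percentile of its array, so leaving out dim readings gave no value. The correlation was 0.96 with normexp, 0.79 as Spearman's rho and 0.94 without 44, 46 and 48 h. It ran from 0.87 to 0.93 with single times left out. The SD of alpha-tubulin minus beta-tubulin, 0.65, was 0.55 with loess, 0.51 without 46 h and 0.48 without 44, 46 and 48 h. With scaling between arrays the span of beta-tubulin was 6.29 and its peak-to-trough 3.57. With normexp the peak-to-troughs were 4.19 for alpha-tubulin and 3.40 for beta-tubulin, and without the bright arrays that of alpha-tubulin was 3.54. Without 44, 46 and 48 h the fitted peak of alpha-tubulin was 15.9 h and its second cycle minus the first 0.57. Genes with an r of at least 0.9 numbered 6, and 11 with loess or normexp, 12 in the authors' deposited table, 17 with scaling between arrays, 15 without the bright arrays, 2 by Spearman's rho and 18 without 44, 46 and 48 h. Leaving out single times gave 5 to 15, with 11 without 6 h, 15 without 44 h and 10 without 48 h. Of 341 alternative values of the 10 results that have an error, 328 moved by less than it, and the cause of the others was not tested. Most of these alternatives leave out 1 time, or use series 1, series 2 or their mean, and so share most of their data with the main value. The tally could therefore hardly come out otherwise and is no measure of robustness. Times of rise and fall in each cycle moved by at most 2 h with loess, normexp or the deposited log2 values. Under these settings the rise came earlier in the second cycle by 4.2 to 4.6 h for alpha-tubulin and 4.0 to 4.4 h for beta-tubulin.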
